A study of Mus musculus with 10 samples.

Results

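The genes described here encode the transcription factors through which the circadian clock reaches its outputs, together with those of its auxiliary feedback loop: Dbp, Tef, Hlf, Nfil3, Nr1d1, Nr1d2, Bhlhe40, Bhlhe41 and Rora. Members were taken by the gene symbol of each probe, brought up to date through its Entrez identifier, and where a gene had several probes the probe of highest mean log2 intensity over all arrays stood for it. Of the 9 genes, 8 had a probe of their own, among 17991 named genes in all. The only probe of Dbp was annotated to 3 genes, Dbp, Sphk2 and Pip5k1c, so its values are given under all 3 names and it is left out of the counts. All 8 genes passed the filter on missing values. Each probe was thus chosen by its measured mean over all 10 arrays, so the levels are a description.

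The RNA came from abdominal aortas of ApoE-/- mice, all male and 14 weeks old, a strain without apolipoprotein E that is prone to atherosclerosis. Aortas of 2 animals were pooled, and each pool (numbered 1, 6, 8, 11 or 12) was hybridised as an infrarenal array, from below the kidney arteries, and a suprarenal array, from above them. Every group carried the ApoE deletion, and the labels name no treatment. The sources used here do not give the time of day of collection. Each array reported a single-colour intensity for 36227 probes, scaled to an array median between 1.001 and 1.003. Values below are log2 of the scaled intensity, so 0 lies close to the median probe of an array.

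In mammalian cells the clock is a feedback loop in which ARNTL and CLOCK (or NPAS2) switch on the Per and Cry genes through E-box sequences, and PER and CRY proteins then switch ARNTL and CLOCK off. The auxiliary loop acts on Arntl: the REV-ERB repressors (Nr1d1, Nr1d2) and the ROR activators (such as Rora) compete for the same response element. Dbp, Tef and Hlf encode related leucine zipper activators that bind D-box sequences and carry the rhythm to target genes, and NFIL3 represses at the same sites. BHLHE40 and BHLHE41, also called DEC1 and DEC2, repress at E-boxes. Vessel wall cells are known to hold such a clock.

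The sequences upstream of Tef and Hlf are shown because these genes, with the shared Dbp probe, had the most similar profiles across arrays. They are the 250 bases before each start site in RefSeq (GRCm38.p6), with 2 start sites for Tef. Capitals mark matches to 3 motifs searched on both strands: the E-box CACGTG, the D-box TTANGTAA and the ROR half-site TNGGTCA. N stands for any base, so these are matches of letters and not known binding sites. A table of 32851 mouse promoters served as background, of which 6.02% held the E-box, 2.06% the D-box and 9.19% the ROR half-site.
Tef, first start site, chr15:81802423-81802672, plus strand: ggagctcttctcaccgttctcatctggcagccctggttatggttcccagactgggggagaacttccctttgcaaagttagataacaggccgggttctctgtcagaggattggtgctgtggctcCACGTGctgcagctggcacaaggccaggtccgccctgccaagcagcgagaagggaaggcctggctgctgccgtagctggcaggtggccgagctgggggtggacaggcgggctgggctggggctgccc
Tef, second start site, chr15:81811164-81811413, plus strand: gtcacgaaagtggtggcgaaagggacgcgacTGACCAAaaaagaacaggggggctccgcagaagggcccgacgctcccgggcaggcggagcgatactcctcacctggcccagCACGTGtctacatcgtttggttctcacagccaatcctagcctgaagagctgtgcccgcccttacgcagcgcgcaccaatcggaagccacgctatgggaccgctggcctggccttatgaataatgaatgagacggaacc
Hlf, chr11:90390918-90391167, minus strand: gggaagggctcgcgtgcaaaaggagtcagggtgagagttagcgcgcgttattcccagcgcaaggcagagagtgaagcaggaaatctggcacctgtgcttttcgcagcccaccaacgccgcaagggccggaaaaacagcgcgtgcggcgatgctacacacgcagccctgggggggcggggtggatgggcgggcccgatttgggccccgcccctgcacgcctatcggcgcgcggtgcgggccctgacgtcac
Each Tef window held 1 E-box, starting 127 and 138 bases before the start site, and the second also held 1 ROR half-site on the other strand. The Hlf window held none of the 3 motifs, which says only that these letters are not in this stretch. Among the other windows found for the 9 genes, Bhlhe41 had an E-box 153 bases before its start and Nfil3 a ROR half-site 12 bases before it, while those of Dbp, Nr1d1, Nr1d2 and Rora had no match. Bhlhe40 had no entry. The windows of the 2 start sites of Arntl overlap. Both hold the same bases with 2 matches to the ROR letters, TTGGTCA and TCGGTCA, which are matches of letters only. Whether REV-ERB or ROR proteins bind at these matches was not tested.

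The study compared the infrarenal with the suprarenal aorta of the same animals. No member passed the test between the regions. In every member the arrays of the regions overlapped, and the share of all probes with such overlap was not counted. The largest gap in size was that of Nr1d2, at -0.35 ± 0.20 log2 units (SE, n = 5 pools, infrarenal minus suprarenal). Of the 8 members, 0 passed limma's test (adjusted p over all probes between 0.652 and 0.92), and 0 had an unadjusted p under 0.05. Over all 36061 probes 0% were called, and 7.56% had an unadjusted p under 0.05. The members' differences ran from -0.35 to 0.030, with 7 of 8 below 0, beside 10868 of all 17991 genes. Their median was -0.13, beside -0.049 over all genes. After quantile normalization 6 members were below 0, with a median of -0.028 beside 0.0015 over all genes, so the lean toward lower infrarenal values moved with the scaling.

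Among the D-box activators, Tef read 5.55 ± 0.45 in infrarenal and 5.52 ± 0.55 in suprarenal aorta (SD, n = 5 each), a difference of 0.030 with a 95% interval from -0.15 to 0.21. Hlf read 3.06 ± 0.91 and 3.14 ± 0.86, a difference of -0.084 with an interval from -0.28 to 0.11. The shared Dbp probe read 6.22 ± 0.79 and 6.22 ± 0.70, with an interval from -0.22 to 0.23. For these genes the SD within a region was several times the difference between regions.

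Nfil3, the D-box repressor, read 2.01 ± 0.19 below and 2.10 ± 0.14 above the kidneys (SD, n = 5 each), with an interval of the difference from -0.31 to 0.12. Among the auxiliary loop genes, Nr1d1 read 5.80 ± 0.17 and 5.95 ± 0.07 and was the lower of the pair below the kidneys in 4 of 5 pools (interval from -0.37 to 0.056). Its difference of -0.16 was -0.036 after quantile normalization and -0.076 without pool 8. Nr1d2 read -0.55 ± 0.42 and -0.20 ± 0.29, with an interval from -0.81 to 0.12. The activator Rora read 3.85 ± 0.15 and 3.90 ± 0.20, with an interval from -0.28 to 0.18, and its difference of -0.05 turned to 0.052 after quantile normalization.

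The DEC repressors varied within regions. Bhlhe40 read 2.17 ± 0.33 in infrarenal and 2.38 ± 0.21 in suprarenal aorta (SD, n = 5 each), with an interval from -0.48 to 0.058 and 4 of 5 pools below 0. Bhlhe41 lay among the dimmest 30% of probes and read -1.90 ± 1.05 and -1.70 ± 0.41, with an interval from -1.23 to 0.85. Its difference of -0.19 became 0.37 without pool 8, whose infrarenal array read -3.73, and 0.11 with its probes averaged.

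**Figure D1:**
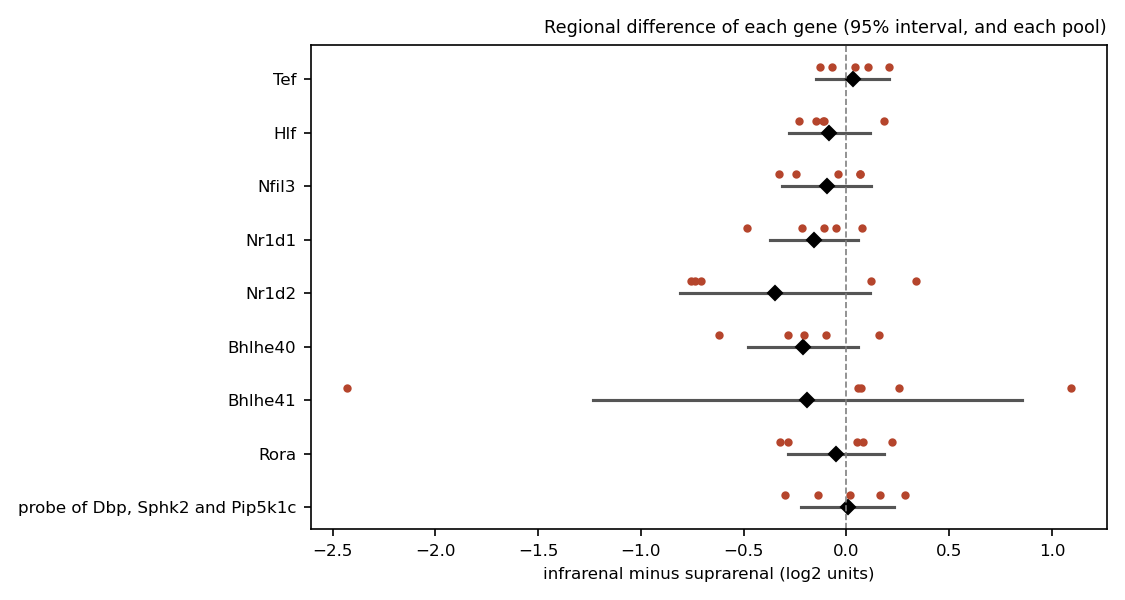
Infrarenal minus suprarenal difference (log2 units) of each member and the shared Dbp probe. Diamonds are the fitted differences, bars their 95% intervals and small red points the 5 pools; every interval spans 0.

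The pools themselves differed in Hlf. On the infrarenal arrays Hlf read 3.71, 1.98, 2.17, 3.60 and 3.84 in pools 1, 6, 8, 11 and 12, and on the suprarenal arrays 3.82, 2.13, 2.28, 3.83 and 3.66. All 4 arrays of pools 6 and 8 lay below all 6 arrays of pools 1, 11 and 12, in both regions. This split was picked from these values, and the share of all probes showing it was not counted. The pool means ranged over 1.71 log2 units, or 3.28-fold, while the 2 parts of a pool differed by at most 0.23. In limma's test of the pool coefficients, with region in the model, Hlf had an adjusted p of 0.0128, and was the only one of the 8 members to pass. Over all 36060 probes tested for pools 0.0139% were called, 5 probes in number, of which 3 had a gene name: Hlf, Arntl and Ciart.

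The Hlf call depended on the setting. Its adjusted p was 0.0792, 0.129, 0.176 and 0.0639 without pool 1, 6, 8 or 11, and 0.00944 without pool 12. It was 0.419 with no mean-variance trend and 0.108 with the RNA input as a covariate. The range of its pool means lay between 1.54 and 1.71 log2 units under the alternatives of the pool test.

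Tef was lowest in pool 6 and next lowest in pool 8, as Hlf was. Its means in pools 11, 12 and 1 were 5.88, 5.88 and 5.89, too close to be ordered. Its infrarenal arrays read 5.86, 4.89, 5.30, 5.82 and 5.90 in pools 1, 6, 8, 11 and 12, and its suprarenal arrays 5.93, 4.79, 5.09, 5.95 and 5.86. Again pools 6 and 8 were low in both regions with no overlap with the rest, a split whose share among all probes was not counted. Pool means ranged over 1.06 log2 units, 2.08-fold, and the parts of a pool differed by at most 0.21, but Tef did not pass (adjusted p = 0.137 by limma). A dimmer Tef probe had the same lowest pools, with means of 3.80 in pool 6 and 4.27 in pool 8 against 5.03 to 5.08 in the others, and an adjusted p of 0.137. The dimmest Tef probe, between -2.05 and -0.87 on all arrays, had its lowest mean in pool 6 but pool 8 among the others, and an adjusted p of 0.936.

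The probe annotated to Dbp, Sphk2 and Pip5k1c read 6.72, 5.20, 5.55, 6.91 and 6.73 on the infrarenal arrays of pools 1, 6, 8, 11 and 12. On the suprarenal arrays it read 6.44, 5.19, 5.85, 6.74 and 6.87. Pools 6 and 8 were the lowest here too, without overlap, a split whose share among all probes was not counted. The pool means ranged over 1.63 log2 units, 3.10-fold (adjusted p = 0.0892 by limma's pool test). Dbp encodes a D-box activator and Sphk2 and Pip5k1c encode lipid kinases, and which of these transcripts the probe read cannot be told apart.

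**Figure D2:**
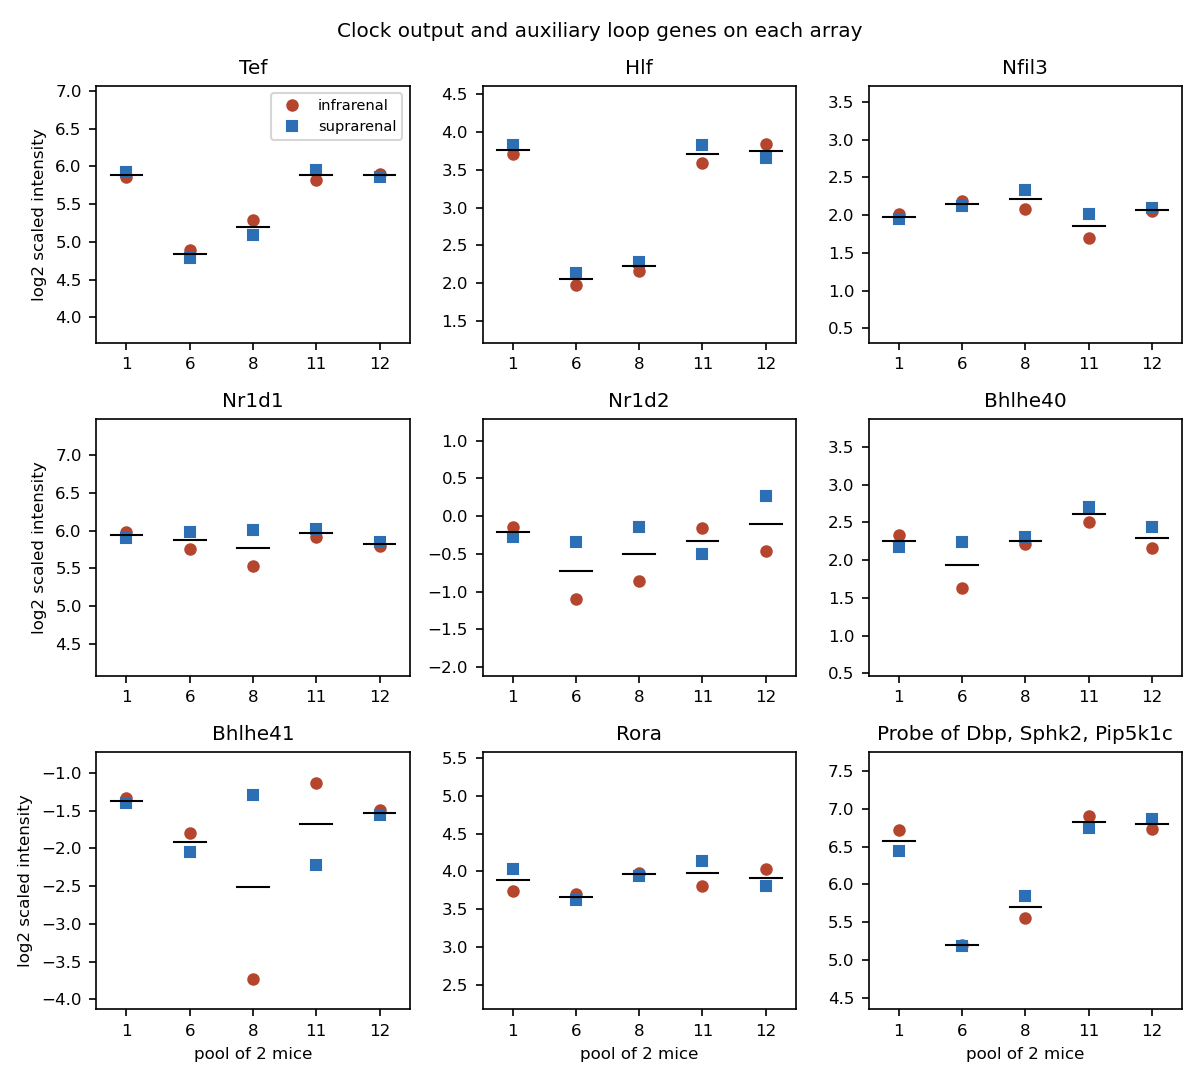
Log2 scaled intensity (y) of the 8 members and the shared Dbp probe in each pool of 2 mice (x), with infrarenal arrays as red circles, suprarenal arrays as blue squares and pool means as black lines. All panels have the same height in log2 units. Hlf, Tef and the shared probe are low in pools 6 and 8 on both arrays.

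The pools were then compared in pairs, 10 pairs in all, with p-values adjusted over all probes in each pair. Hlf was called in 5 pairs: lower in pool 6 than in pools 1, 11 and 12, by 1.71, 1.66 and 1.70 log2 units, and lower in pool 8 than in pools 1 and 12, by 1.54 and 1.53 (SE 0.14 for each). In those 5 pairs 0.0361%, 0.00832%, 0.0194%, 0.0111% and 0.0111% of probes were called. Pool 8 against 6 and pool 11 against 8 called 0.00277% each, and the pairs among pools 1, 11 and 12 called 0%. Among neighbours in its order of pools, pool 8 lay above pool 6 by 0.17 ± 0.14 (SE, adjusted p = 0.972), and pools 11, 12 and 1 lay within 0.056 of each other. The step between pools 8 and 11 was 1.49 ± 0.14, many times its SE, with an adjusted p of 0.0565. The shared Dbp probe was called in 1 pair, pool 12 above pool 6 by 1.60 ± 0.15 (adjusted p = 0.0402), and Tef in 0, with 0.0545 as its smallest adjusted p.

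The other 6 members did not pass between pools (adjusted p between 0.866 and 0.94), and the pool means of all but Bhlhe41 (1.14 log2 units) ranged over less than those of Tef. Nfil3 read from 1.69 to 2.33 over the 10 arrays and was highest in pools 6 and 8 by pool mean, at 2.15 and 2.21, against 1.86 to 2.07 in the others. Its arrays overlapped between pools, with pool 8 at 2.09 and 2.33 and pool 12 at 2.05 and 2.09. Its pool means ranged over 0.35 log2 units.

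Nr1d1, the REV-ERBα gene, read from 5.53 to 6.02 and had the narrowest range of pool means of the 8 members, 0.20 log2 units. The arrays of pool 8 held both its lowest value, 5.53 in infrarenal aorta, and 6.01 in suprarenal aorta. Nr1d2, the related REV-ERBβ gene, read from -1.10 to 0.27. Its lowest values, -1.10 and -0.86, were the infrarenal arrays of pools 6 and 8, while the suprarenal arrays of those pools read -0.34 and -0.15, among the others. By pool mean pools 6 and 8 were its lowest, at -0.72 and -0.51 (adjusted p = 0.896). Rora read from 3.62 to 4.13, lowest in pool 6 at 3.70 and 3.62. A dimmer Rora probe ran from 2.96 to 3.32 and went the other way. Its pool mean was highest in pool 6, at 3.16 (adjusted p = 0.974 by the same pool test).

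Bhlhe40 read from 1.62 to 2.71, with pool means from 1.93 in pool 6 to 2.61 in pool 11. The 2 parts of pool 6 differed by 0.62, almost as much as the pool means did (0.67). Bhlhe41 read from -3.73 to -1.13 and its parts differed by up to 2.43. Its dimmer probe was low elsewhere, at -3.54 and -4.01 on the suprarenal arrays of pools 6 and 8. The probes thus disagreed by array, while by pool mean both had pools 8 and 6 lowest, at -2.51 and -1.92 for the first and -3.06 and -2.93 for the dimmer (adjusted p = 0.925 and 0.882).

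The share of the variation between arrays that lay between pools, after the mean of each region was taken out, sets the members side by side. It was 99.2% for Hlf, 98.2% for Tef and 97.6% for the shared Dbp probe. Bhlhe40 and Nfil3 had 73.8% and 71.0%, Rora 53.5%, Nr1d2 45.7%, Nr1d1 37.7% and Bhlhe41 31.3%. The median over all genes was 53.4%, and 62.2% over the 8 members. At an unadjusted p under 0.05 there were 2 of 8 members, Hlf and Tef, beside 5.89% of all probes and 7.29% of all genes.

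**Figure D3:**
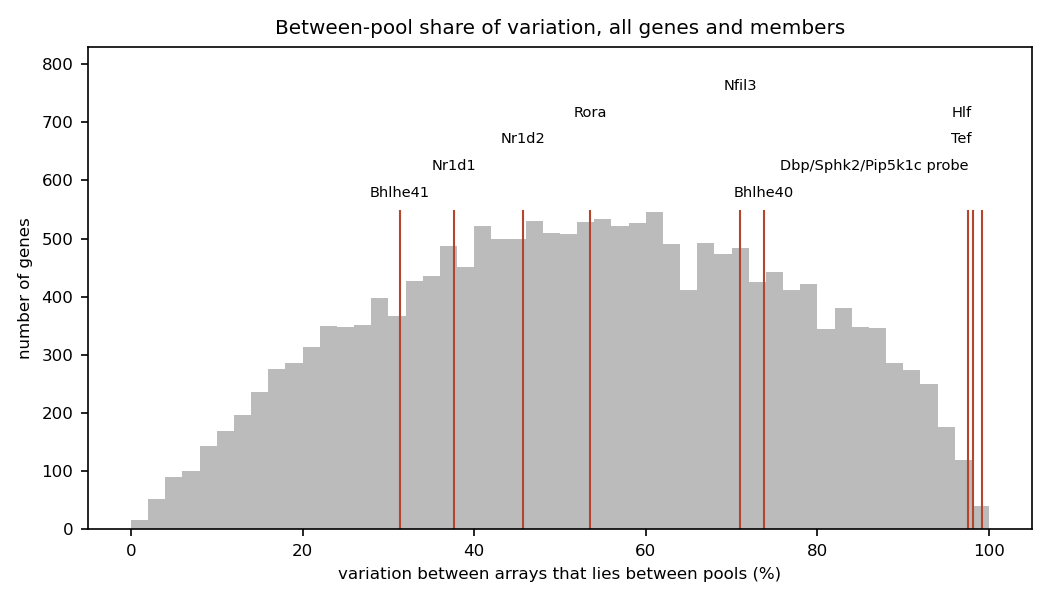
Percent of the variation between arrays that lies between pools (x), as a histogram over all named genes (y, number of genes), with vertical lines for the members and the shared Dbp probe. Hlf, Tef and the shared probe lie at 97.6% or more, and the other members between 31.3% and 73.8%.

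Profiles across arrays were compared by Pearson's r over the 10 arrays, with the mean of each region subtracted. The arrays come from 5 pools and are not independent, so r is given as a description. Tef and Hlf had r = 0.972, and the shared Dbp probe had 0.951 with each. Nfil3 ran the other way, at -0.634 with Tef and -0.662 with Hlf. Nr1d1 had 0.212 with Tef and 0.372 with Hlf, and Nr1d2 0.541 and 0.58. Over all 28 pairs of members r ran from -0.662 to 0.972, with a median of 0.344.

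Among 13962 other genes above the dimmest 30% of probes, the profiles most like Tef were those of Rev1, a DNA polymerase of translesion synthesis (r = 0.988), Ciart (0.982) and Per2 (0.981). Those most like Hlf were Cenpb, a centromere protein gene (0.978), Tef (0.972) and Ciart (0.965). For the shared Dbp probe they were Ciart (0.984), Flywch2 (0.966) and Hlf (0.951), and the most opposed were Arntl (-0.966), Fam43a (-0.959) and Fam161b (-0.92). Rev1, Cenpb and Flywch2 did not pass between pools, with adjusted p of 0.402, 0.842 and 0.625. Nr1d1 was matched best by Aldh3a1, Dpp6 and C430002N11Rik, with r from 0.906 to 0.928, and opposed most by Utrn (-0.933).

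The core clock genes were read from the same fit. Of 8, Arntl passed between pools (adjusted p = 0.00449), and 4 had an unadjusted p under 0.05, beside 7.29% of all genes. Arntl, the partner of CLOCK and the gene on which REV-ERB and ROR act, read 3.34 and 3.48 in pool 6 and 2.29 and 2.31 in pool 8, against -0.45 to 0.54 on the other 6 arrays. It was thus high where Hlf and Tef were low, and had r of -0.973 with each of them. Per2 and Per3, repressor genes of the core loop, had pool means of 0.58 and 0.93 in pool 6, 1.24 and 1.43 in pool 8, and at least 2.08 and 1.69 in the others. Neither passed (adjusted p = 0.197 and 0.379).

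Npas2, which can stand in for Clock, had pool means of -0.65 in pool 6 and -1.65 in pool 8 against -3.43 to -2.37 elsewhere (adjusted p = 0.45). Clock itself had 4.81 and 4.74 in those pools against 4.26 to 4.42 (adjusted p = 0.852). The pool means of the remaining repressor genes ranged over less: 0.21 log2 units for Per1, 0.49 for Cry1 and 0.44 for Cry2, with adjusted p of 0.979, 0.882 and 0.882. Between regions 0 of the 8 core genes passed.

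Of 11 measured genes of a 14-gene list known to be under clock control, Ciart passed between pools (adjusted p = 0.00435). An unadjusted p under 0.05 was found for 6, beside 7.29% of all genes. Ciart, a repressor of ARNTL and CLOCK, had pool means of -0.37 in pool 6 and 0.66 in pool 8, and 2.51, 2.54 and 2.85 in pools 1, 11 and 12. The upstream window of Ciart held 3 E-boxes, while those of Hlf and Arntl, which also passed, held 0. Among genes that did not pass, 1 window of Per1, both of Tef and those of Cry1 and Bhlhe41 held 1 each. The part of E-boxes in the pool values was not tested. Tspan4, a tetraspanin gene, had 4.24 and 4.69 in pools 6 and 8 against 5.10 to 5.33, and Wee1, a cell cycle kinase gene, -0.18 and 0.64 against 1.01 to 1.71 (adjusted p = 0.137 for both). Usp2, a ubiquitin protease gene, had 2.85 and 3.07 against 3.27 to 3.95 (adjusted p = 0.204).

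**Figure D4:**
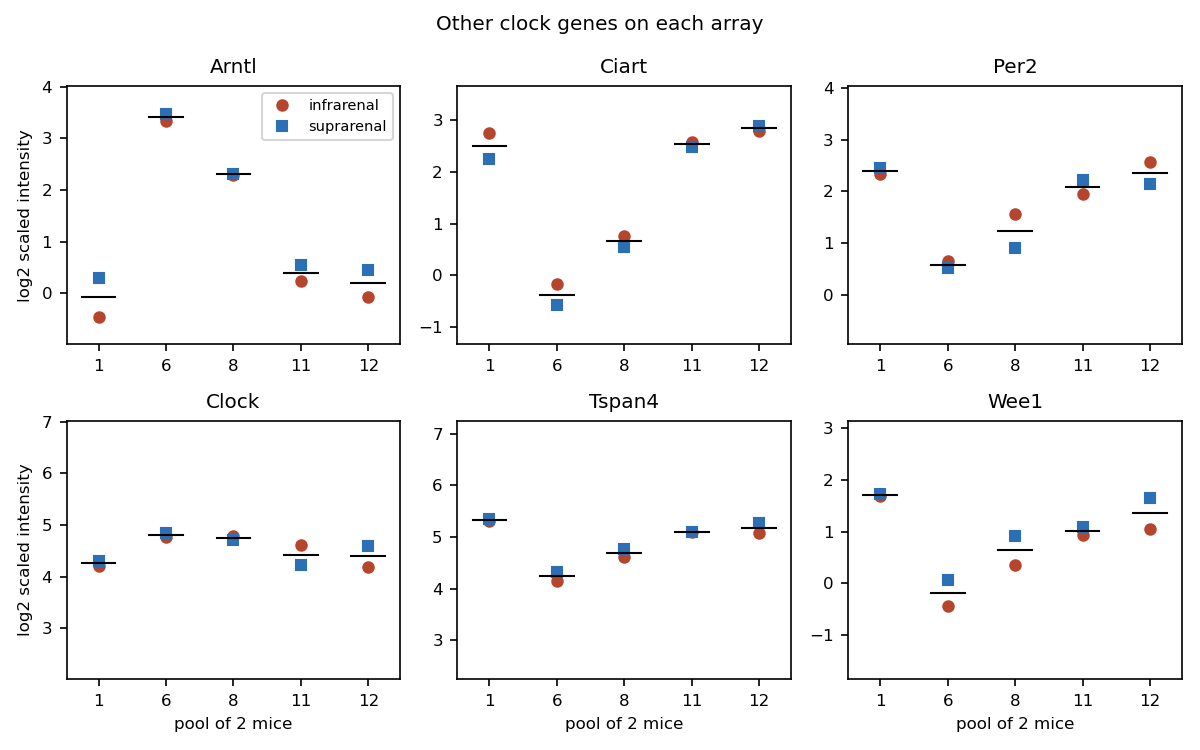
Log2 scaled intensity (y) of 6 other clock genes in each pool of 2 mice (x), with infrarenal arrays as red circles, suprarenal arrays as blue squares and pool means as black lines, and panels of equal height. Arntl is high and Ciart low in pools 6 and 8 on both arrays.

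Other clock components did not pass. Of 10 measured clock modifiers (kinases, ubiquitin ligase parts and cofactors) 0 passed and 0 had an unadjusted p under 0.05, with Fbxw11, Nono, Csnk1a1 and Sirt1 ranging over 0.51, 0.32, 0.22 and 0.27 log2 units between pools. Of 3 measured REV-ERB and ROR partners 0 passed, with ranges of 1.59 for the coactivator Ppargc1a, 1.32 for the dim Rorb and 0.15 for the corepressor enzyme Hdac3.

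Values that moved with the pools are given beside these results. RNA input was 0.35 µg on both arrays of pool 6, and 0.34 and 0.35 µg on those of pool 8. It was 0.44 and 0.54 µg in pool 1, 0.35 and 0.47 µg in pool 11, and 0.51 and 0.35 µg in pool 12, infrarenal first. The infrarenal array of pool 11 and the suprarenal array of pool 12, with 0.35 µg, read 3.60 and 3.66 for Hlf. With RNA input as a covariate Hlf had an adjusted p of 0.108 in limma's pool test. The part of RNA input in the Hlf values was not tested.

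Of 12 immediate early genes, 6 had an unadjusted p under 0.05 between pools, beside 7.29% of all genes, and 0 passed. Atf3 and Jun, which encode stress-responsive factors, had means of 3.91 and 5.96 in pool 6, but 1.97 and 4.56 in pool 8 and 1.83 to 1.97 and 4.76 to 5.07 in the others. Nr4a1 read 4.47 in pool 6, 2.93 in pool 8 and 4.06 in pool 11, and Dusp1 read 5.31, 4.63 and 5.38 in the same pools. Of 10 glucocorticoid-responsive genes 5 had an unadjusted p under 0.05 and 0 passed: Fkbp5 read 0.82 in pool 6 and 1.55 in pool 8 against 1.24 to 2.52, and Tsc22d3 5.64 and 6.23 against 6.12 to 6.74. Zbtb16 and Cebpd ranged over 1.17 and 0.66 log2 units. Zbtb16 was lowest in pool 6, at -0.099, but highest in pool 8, at 1.07. Cebpd was lowest in pools 8 and 6, at 5.53 and 5.75. Tsc22d3 is also on the list of clock-controlled genes, Dusp1 on both lists here and Per1 among the core genes. The part of either list in the Hlf and Tef values was not tested.

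Markers of the vessel wall and of neighbouring tissue were read on the same arrays. All 8 smooth muscle markers were measured and their summed scaled intensity lay between 1346 and 1483 on every array. Of 66 measured markers of 11 cell types 0 passed between pools and 5 had an unadjusted p under 0.05, beside 7.29% of all genes. All 4 kidney and all 4 adrenal cortex markers were under 1, the array median, on every array. The 7 brown adipocyte markers summed to 201.5 and 994.5 in the infrarenal and suprarenal arrays of pool 6, and from 192.8 to 1068 over the others. The 8 skeletal muscle markers summed to 117 and 18.1 on those arrays and from 20.6 to 425.5 over the others. In bulk samples fewer cells of a type and less RNA per cell cannot be told apart.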

How the data were processed

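The 10 arrays each held 1 pooled aorta sample. In the labels' protocols, 0.34 to 0.54 µg of RNA was amplified into biotin-labelled cRNA. The deposited file holds intensity on a linear scale, which the authors had brought to an array median near 1. No source used here gives the scanner or the method of background correction and scaling. Missing values numbered 1968, and 1755 were not positive. The deposited intensities were put on a log2 scale after raising 5328 of them to 0.0278, percentile 1 of positive values. This compresses differences of dim probes. At least 3 values per region were required, which left 36061 of 36227 probes.

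Probe symbols are those of the platform annotation, brought up to date by Entrez identifier (RefSeq GRCm38.p6). A single symbol was listed for 21615 probes (21487 matched), several for 681 and none for 13931. The sources name no genome build, so coordinates are those of RefSeq's promoter table only.

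A linear model with region and pool was fitted with limma 3.58.1 in R 4.3.3 (eBayes with a mean-variance trend). Region was tested with the pool as a block, and pools with a moderated F-test of the 4 pool coefficients. The region test is two-sided, and the threshold was 0.05 after Benjamini-Hochberg adjustment across the probes tested. The series' design text has each pool of aortas divided by region, and arrays were paired by the number their titles share; no other label ties that number to the animals. Deviations from the region means correlated within pairs between -0.0921 and 0.0452 over all probes. The pool pairs were compared after the pool test had been seen. The number of arrays limits the precision. Region p-values set the regional difference against its spread between pools of 2 mice. Pool p-values and the SEs of pool pairs rest on the spread between the 2 parts of the same pool, after region. They do not measure the spread among further animals. The scripts were tested on simulated data.

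Named genes were all members, for each the 3 genes of most similar profile (given for members not described above in the closing section), for Nr1d1 and the Dbp probe also the 3 most opposed, all core clock genes, and up to 4 of each other list by smallest pool p. Alternatives were quantile normalization, an added offset instead of the floor, leaving out the dimmest 30% of probes or any 1 pool, no mean-variance trend, weights for arrays, RNA input in the model, averaging a gene's probes and no replicate block. The members and lists were chosen with earlier results of these data known, so their agreement with the Arntl pattern is not independent support.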

Additional observations from a re-analysis of the deposited data

Results flagged for a closer look

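Among 18 sets of 5 arrays of a region, for the 8 members and the shared Dbp probe, 1 had its lowest array well apart from the rest; about 5% of sets do so by chance. The infrarenal array of pool 8 read -3.73 log2 units for Bhlhe41, against -1.79 to -1.13 on the other infrarenal arrays.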

How the results depend on the processing

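Between regions 0 members were called under all alternatives, with each pool left out in turn and with no replicate block (0 of 36061 probes as well, 2758 at an unadjusted p under 0.05). Over all probes quantile normalization called 1. The pairing by block thus changed no call of a member. Between pools, 5 probes and 1 member (Hlf) were called. With no variance trend 0 probes and 0 members were called, and with RNA input as a covariate 2 probes and 0 members; the cause was not tested. With each pool left out in turn, 1 to 4 probes and 0 to 1 members were called, with 4 pools in place of 5. The Tef and Hlf profiles had r = 0.957 after quantile normalization and 0.968 to 0.994 with each pool left out. Regional differences of 3 members, none of them called, changed sign: Rora to 0.052 after quantile normalization and to 0.0073 and 0.017 without pools 1 and 11; Tef to -0.030 with averaged probes and -0.014 without pool 8; Bhlhe41 to 0.11 with averaged probes and 0.37 without pool 8. Dim probes limit Bhlhe41 and Nr1d2, whose residual SDs were 0.71 and 0.32 log2 units against 0.12 to 0.18 for the other members.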

Other observations

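The profiles most like those of the remaining members were mostly of genes with no known place in the clock. For Nfil3 they were Cd8a, Magef1 and Mpeg1 (r from 0.865 to 0.896), for Nr1d2 Net1, Smim14 and Mxd4 (0.925 to 0.936) and for Bhlhe40 Olfr1157, Tmub2 and Zfx (0.932 to 0.972). For Bhlhe41 they were Xlr4c, Dcaf7 and A330102I10Rik (0.91 to 0.967), and for Rora A330032P22Rik, Ccdc114 and Fiz1 (0.926 to 0.976). None of these 15 genes passed between pools, and each r is over 10 arrays of 5 pools. Opposed to Nr1d1 after Utrn were C130075A20Rik (-0.911) and Snapc3 (-0.908).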
